A study of Mus musculus with 32 samples.

Results

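Macrophage migration inhibitory factor (Mif) and chemokine (C-X-C motif) ligand 1 (Cxcl1) are secreted cytokines, and each is followed here through 1 of the 15247 clones of the cDNA array, H3019C07 for Mif and H3051F10 for Cxcl1. They are 2 of the genes that the study listed as shifted on polysomes, so the polysomal difference between the cell lines chose them and is given below as a description without a test. The cells were 3T3-tTA-eIF4E, mouse NIH 3T3 fibroblasts in which the tetracycline-repressed transactivator tTA drives an eIF4E transgene, and the parental line 3T3-tTA, which carries tTA without the eIF4E transgene. Induction was removal of tetracycline for 5 hr, and the parental cells underwent the same removal. The 16 arrays formed 4 conditions of 4 arrays: induced over uninduced total RNA of 3T3-tTA (T1, T3, T5 and T7), induced over uninduced total RNA of 3T3-tTA-eIF4E (T9, T11, T13 and T15), heavy polysomal over total RNA of induced 3T3-tTA (P9, P11, P13 and P15) and heavy polysomal over total RNA of induced 3T3-tTA-eIF4E (P1, P3, P5 and P7). Each array is named here by the number in the title of the first of its 2 deposited samples, which are the duplicate spots of each clone. The 4 arrays of a condition stood for 2 RNA extractions in both dye orientations, so an SD over arrays is partly technical.

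eIF4E binds the cap at the 5′ end of mRNAs and recruits the ribosome to them, and it is thought to be limiting for this step. An mRNA that carries more ribosomes sediments further in a sucrose gradient, so the ratio of heavy polysomal to total RNA follows the share of an mRNA that is heavily loaded. Cxcl1 attracts neutrophils through the receptor Cxcr2, and its gene is a classical target of NF-kappaB in fibroblasts. Mif is a cytokine with tautomerase activity that is made by many cell types without stimulation, binds Cd74 and leaves the cell without a classical signal peptide.

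The probes on the array are cDNA clones whose letters were not used here, so the stretch of 150 bases just before the RefSeq transcription start of each gene is shown instead, because the total RNA arrays ask whether the amount of each message changed. For Cxcl1 it lies at chr5:90891095-90891244 on the + strand, and for Mif at chr10:75860278-75860427 on the - strand (RefSeq, GRCm38.p6). Capitals mark matches to 4 motifs searched on both strands: the NF-kappaB consensus, TGACGTCA, GGGCGG and TATAAA.
Cxcl1: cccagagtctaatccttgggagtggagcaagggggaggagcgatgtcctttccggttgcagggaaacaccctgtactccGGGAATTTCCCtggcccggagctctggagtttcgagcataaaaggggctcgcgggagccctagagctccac
Mif: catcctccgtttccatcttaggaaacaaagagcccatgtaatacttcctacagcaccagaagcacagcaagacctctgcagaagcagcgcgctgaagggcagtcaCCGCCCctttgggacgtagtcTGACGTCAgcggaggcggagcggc
In Cxcl1 the capitals are 2 overlapping matches to the NF-kappaB consensus, which 4.60% of the 32851 windows of this length hold. In Mif they are GGGCGG on the opposite strand, held by 28.6% of windows, and TGACGTCA, held by 1.36%. Neither window holds an exact TATAAA, which 7.57% of windows hold. The Cxcl1 window holds cataaa, which differs from it in the first base, and near matches were not counted over all windows. The first transcribed base is A in both genes, so neither start has the run of pyrimidines that opens the mRNAs of many ribosomal proteins. Of the first 50 transcribed bases 56% were G or C in Cxcl1, equal to the median of 56% over all windows, and 68% in Mif. These matches are descriptions of letters and say nothing on binding.

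Some facts of the whole series bear on both genes. The 3 Eif4e clones were above 0 on all 4 total RNA arrays of 3T3-tTA-eIF4E, with differences between the lines of 2.69 to 3.75 on the log2 scale. The study listed Eif4e for its raised total RNA, so these values are a description and no separate check of the labels. The clones of the fibroblast markers Col1a2, Bgn and Dcn had total RNA differences between the lines of 0.38, 0.42 and -0.61 on the log2 scale, the contrast for which the study listed them. Arrays of a line with opposite dyes correlated poorly after their ratios had been turned to the same direction, from -0.61 to 0.14 for total RNA and from -0.42 to 0.13 for polysomal RNA, whereas arrays with the same dyes correlated at 0.33 to 0.58. The direction was kept because the sample labels state the dye of each RNA. The ratios were normalized within each array, so every value is relative to the bulk of the clones and a shift common to all mRNAs would not be seen. The RNA came from whole cultures, in which fewer cells with a message and less message per cell cannot be told apart.

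Heavy polysomal RNA of induced 3T3-tTA-eIF4E cells was rich in Mif and Cxcl1 relative to total RNA. Mif had the highest mean ratio of the 15247 clones, 1.95 ± 0.30 on the log2 scale (SD, n = 4 arrays), or 3.87-fold. Cxcl1 came second at 1.83 ± 0.49 (SD, n = 4 arrays), or 3.56-fold, and the clone at rank 3 had 1.60. The order of the cytokines is not settled, since Cxcl1 (1.99) came before Mif (1.83) when the reference was read as uninduced RNA, and also without P1 (2.06 and 1.97). Their ranks at the top rest on P7, without which Mif ranked 38 (1.82) and Cxcl1 ranked 55 (1.68), and without P5 Cxcl1 ranked 7 (1.76). The fold and rank of Cxcl1 are further uncertain, because its total RNA signal in this line was close to background on both arrays whose scanner values were analysed. In parental 3T3-tTA cells Mif had a mean of 1.23 ± 0.55 (SD, n = 4 arrays) that ranked 18, or 1.45 at rank 11 without P15. Cxcl1 had a mean of 0.02 ± 0.88 (SD, n = 4 arrays) at rank 7741 in these cells. This mean rests on P15, and the other 3 parental arrays were all above 0, with a mean of 0.46 ± 0.10 (SD, n = 3 arrays) at rank 1356.

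**Figure D1:**
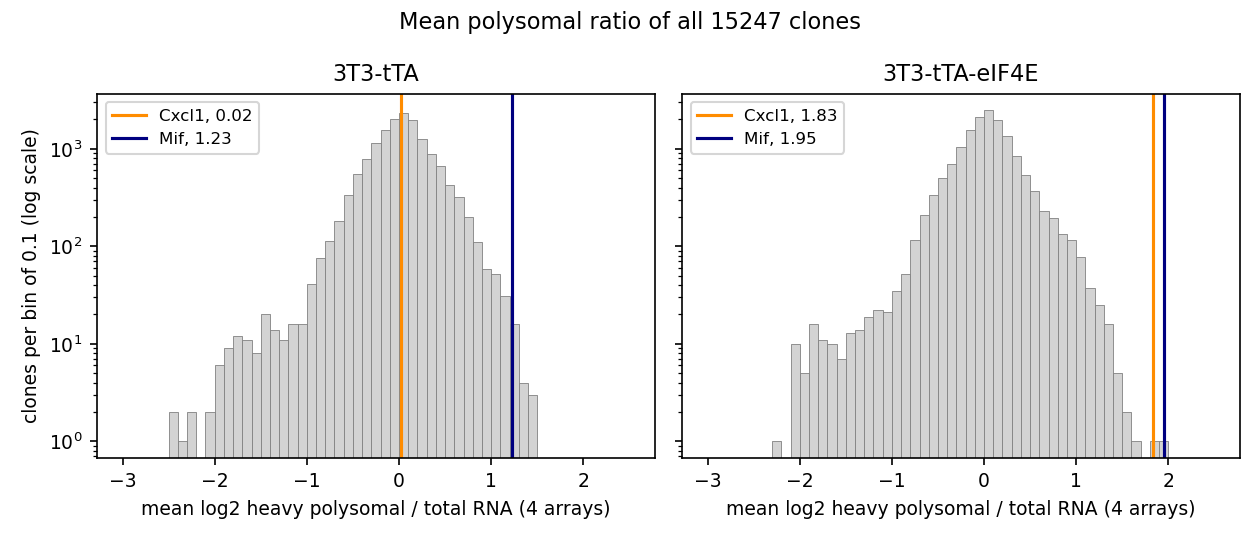
Histograms of the mean log2 ratio of heavy polysomal to total RNA of all 15247 clones (4 arrays each; y axis, clones per bin of 0.1 on a log scale) in 3T3-tTA (left) and 3T3-tTA-eIF4E (right), with vertical lines for Cxcl1 and Mif. In 3T3-tTA-eIF4E both vertical lines lie beyond every other clone as means of all 4 arrays, at 1.83 and 1.95, and in 3T3-tTA Cxcl1 lies at 0.02 (0.46 without the array P15) and Mif at 1.23, near the right end.

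For Cxcl1, the log2 ratio of heavy polysomal to total RNA in 3T3-tTA-eIF4E was 1.13 on P1, 1.88 on P3, 2.03 on P5 and 2.28 on P7. In 3T3-tTA it was 0.48 on P9, 0.36 on P11, 0.55 on P13 and -1.29 on P15. There was no overlap between the lines, and the lowest array of 3T3-tTA-eIF4E, P1, lay above the highest of 3T3-tTA, P13. On the array P15 the ratio lay far below those of the other 3 parental arrays, which had 0.36 to 0.55. The difference between the lines was 1.81 on the log2 scale, or 3.50-fold, the third highest of all clones. Its size and rank are uncertain. The total RNA signal of Cxcl1 was close to background on P3 and P7, and its mean polysomal signal on P15 was below the local background. Clones whose 3T3-tTA-eIF4E arrays all lay above all 3T3-tTA arrays were 0.728% of those on the array, and since this contrast chose Cxcl1 nothing is read from its place among them. Without P15, and with the dye term fitted on the other arrays, the Cxcl1 difference was 1.43.

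For Mif, the log2 ratio of heavy polysomal to total RNA in 3T3-tTA-eIF4E was 1.90 on P1, 1.96 on P3, 1.61 on P5 and 2.33 on P7. In 3T3-tTA it was 1.23 on P9, 1.89 on P11, 1.25 on P13 and 0.55 on P15. The arrays of the lines overlapped, since P11 of the parental line lay above P5, while in 15 of the 16 pairs of arrays the 3T3-tTA-eIF4E array was the higher. The difference between the lines was 0.72 on the log2 scale, or 1.65-fold, at rank 273 of all clones, and 0.52 without P15 with the dye term fitted on the other arrays. Mif was above 0 on all 8 polysomal arrays. A ratio above 0 on all 4 arrays was found for 12.4% of clones in 3T3-tTA-eIF4E and for 7.72% in 3T3-tTA.

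The size of the differences also depended on the dye. With the arrays that carried polysomal RNA in Cy3 only, the Mif difference was 0.41, and with those in Cy5 only it was 1.03. For Cxcl1 the same values were 1.74 and 1.88. The Cy5 values rest on P15, without which they were 0.68 for Mif and 0.96 for Cxcl1. The spots of a clone differed by a median of 0.12 for Mif and 0.30 for Cxcl1 over the 8 polysomal arrays, beside 0.16 for all clones. For the reference RNA of the polysomal 3T3-tTA-eIF4E arrays the sample labels say uninduced cells and the study's methods say induced cells. The values above take the methods' reading. Read the other way, by subtraction of the mean change of the gene in total RNA, the differences were 1.96 for Cxcl1 and 0.61 for Mif.

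**Figure D2:**
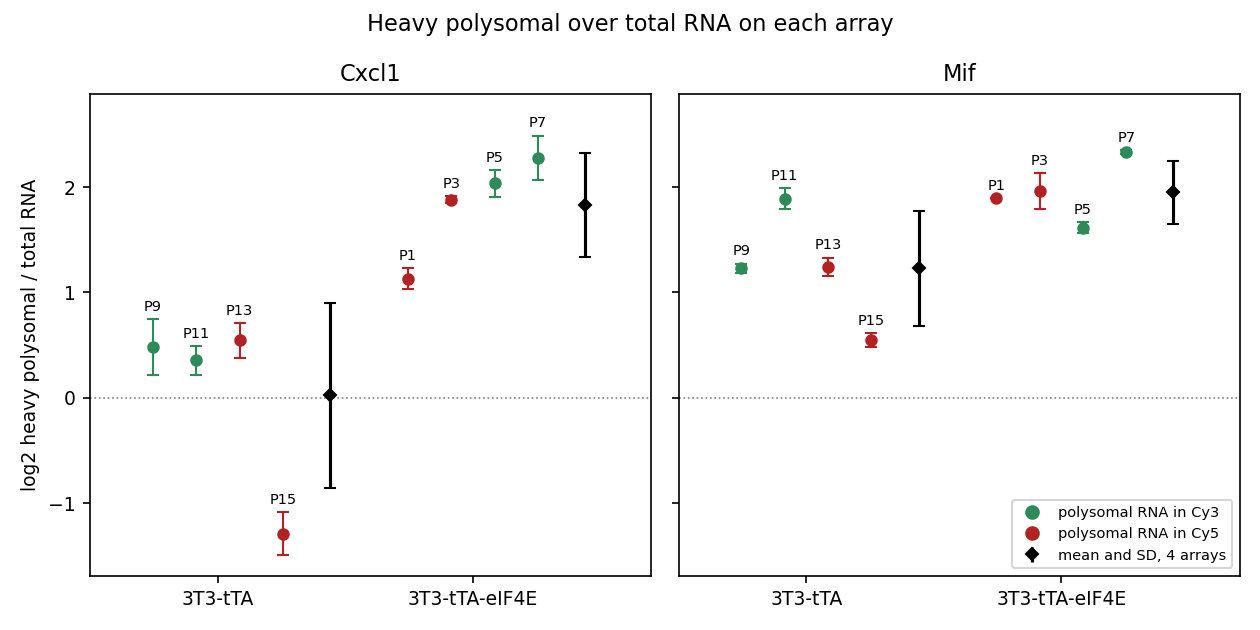
Log2 ratio of heavy polysomal to total RNA of Cxcl1 (left) and Mif (right) on each array of 3T3-tTA and 3T3-tTA-eIF4E (dots, mean of the duplicate spots, which are the ends of the coloured lines; green, polysomal RNA in Cy3; red, in Cy5), with the mean and SD of 4 arrays in black. The Cxcl1 arrays of the lines do not overlap and P15 lies alone at -1.29, whereas for Mif P11 of 3T3-tTA reaches 1.89, above P5 of 3T3-tTA-eIF4E.

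The polysomal and total channels can be viewed apart on the 4 polysomal arrays for which scanner intensities were analysed, P3 and P7 of 3T3-tTA-eIF4E and P11 and P15 of 3T3-tTA. For Cxcl1 the polysomal channel read 1.66 times the array's median spot on P3 and 1.96 times on P7, against 1.24 times on P11 and 0.782 times on P15. The total RNA channel read 0.532 times the median on P3 and 0.358 times on P7, against 0.842 times on P11 and 2.08 times on P15. Thus the polysomal signal of Cxcl1 was higher and its total signal lower on both arrays of 3T3-tTA-eIF4E. As means of log2 values, the polysomal channel differed between the lines by 0.87 and the total channel by -1.60, or by 0.54 and -0.95 without P15. These sizes are uncertain, since the total channel was close to background on P7 and the polysomal channel below it on P15. With 2 arrays per line no test was made, and no array of the series compared the total RNA of the lines directly.

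The total RNA signal of Cxcl1 in 3T3-tTA-eIF4E was close to the local background of the slide. On P3 it was 388 over a background of 274, and on P7 it was 243 over 228, a ratio of 1.07, with a spot of 217 below its own background of 256. In 3T3-tTA it was 944 over 409 on P11 and 1317 over 357 on P15. The deposited ratios contain this background, since none was subtracted. With normexp background correction, the Cxcl1 ratio was 0.85 on P3 and 1.98 on P7, lower than as deposited, and 0.10 on P11 and -2.79 on P15.

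On P15, where Cxcl1 had its low ratio, the Cy5 background of the polysomal channel was high around the Cxcl1 spots. It read 7791 at the first spot and 912 at the second, beside an array median of 298, and the former lay at percentile 99.7 of all spots. The polysomal signals of these spots were 1390 and 1202, so the first was dimmer than its surroundings. At both Mif spots of P15 the same background was 231 and 240. The part of this background in the ratio of Cxcl1 on P15 was not tested. P13, the other parental array with polysomal RNA in Cy5, had a Cxcl1 ratio of 0.55.

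For Mif both channels were well above background on all 4 of these arrays, with signals 4.63 to 19.5 times it. The polysomal channel read 5.98 times the array's median on P3, 7.70 times on P7, 6.52 times on P11 and 2.77 times on P15. The total channel read 2.55, 1.49, 1.51 and 3.19 times the median on the same arrays. As means of log2 values the lines differed by 0.68 in the polysomal channel and by -0.17 in the total channel. These values rest on P15, and without it they were 0.06 and 0.37. The ranges of the lines overlapped in both channels, with the polysomal signal of P11 between those of P3 and P7.

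**Figure D3:**
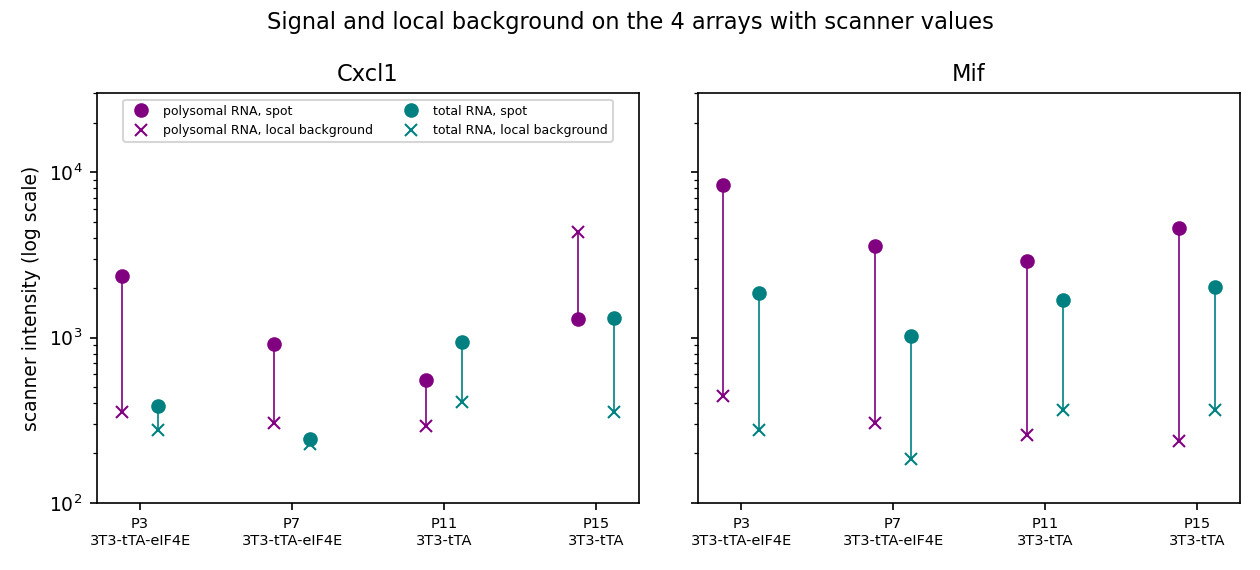
Scanner intensity (log scale) of Cxcl1 (left) and Mif (right) on the 4 polysomal arrays with scanner values; dots are the mean of the duplicate spots, crosses their local background, purple the polysomal channel and teal the total RNA channel. For Cxcl1 the total channel nearly meets its background on P7 (243 over 228) and the polysomal background exceeds the spot on P15, whereas every Mif signal stands clear of its background.

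The total RNA arrays asked whether the messages themselves changed when tetracycline was removed, and this contrast was not used to choose the genes. Neither cytokine passed the test for a difference between the lines. The test did not call any of the 3 Eif4e clones either, so a missing call does not show that a message was unchanged. For Cxcl1 the log2 ratio of induced to uninduced total RNA in 3T3-tTA was -0.72 on T1, -0.61 on T3, 0.58 on T5 and 0.66 on T7. In 3T3-tTA-eIF4E it was 0.07 on T9, -0.20 on T11, -0.62 on T13 and 0.12 on T15. T1 lay below and T5 and T7 above all 3T3-tTA-eIF4E arrays, while T3 lay within their range. The means were -0.02 ± 0.75 and -0.16 ± 0.34 (SD, n = 4 arrays), and the difference of -0.13 ± 0.43 (SE) had an adjusted p of 1.00 by limma. The 95% interval of the difference, -1.23 to 0.97 on the log2 scale, ran from 0.426-fold to 1.95-fold.

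For Mif the log2 ratio of induced to uninduced total RNA in 3T3-tTA was 0.57 on T1, 0.65 on T3, -0.44 on T5 and -0.43 on T7. In 3T3-tTA-eIF4E it was 0.15 on T9, 0.63 on T11, 0.90 on T13 and -1.21 on T15. The lines overlapped widely, and T15 was lower than any parental array. The means were 0.09 ± 0.60 and 0.12 ± 0.94 (SD, n = 4 arrays), and the difference of 0.03 ± 0.43 (SE) had an adjusted p of 1.00 by limma. Its 95% interval was -1.08 to 1.14 on the log2 scale, from 0.474-fold to 2.20-fold. Both intervals leave room for total RNA differences as large as the 1.65-fold polysomal difference of Mif. They rest on the assignment of arrays to extractions with the largest p for each gene, and so are wide. With the assignment of the smallest p the SE was 0.11 for Cxcl1 and 0.18 for Mif. Which assignment is right is not known.

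The spread of both genes was largest, relative to other clones, in parental total RNA. There the SD of Cxcl1 over the 4 arrays lay at percentile 99.3 of all clones and that of Mif at percentile 97.9, beside a median SD of 0.18. In total RNA of 3T3-tTA-eIF4E the percentiles were 65.8 for Cxcl1 and 95.4 for Mif, in polysomal 3T3-tTA 80.9 and 57.1, and in polysomal 3T3-tTA-eIF4E 69.8 and 38.1. The duplicate spots of Mif differed by at most 0.20 on a total RNA array, so its spread lay between arrays and not between spots. The spots of Cxcl1 differed by up to 0.51. On 7 of the 8 total RNA arrays the ratios of Cxcl1 and Mif had opposite signs, with T9 the exception, and 3.74% of all clones were opposite to Mif on as many arrays. In 3T3-tTA-eIF4E the Mif ratio had a mean of 0.77 on the arrays with induced RNA in Cy3 and of -0.53 on those in Cy5, of which T9 had 0.15 and T15 -1.21. In 3T3-tTA the means by dye were 0.07 and 0.11.

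**Figure D4:**
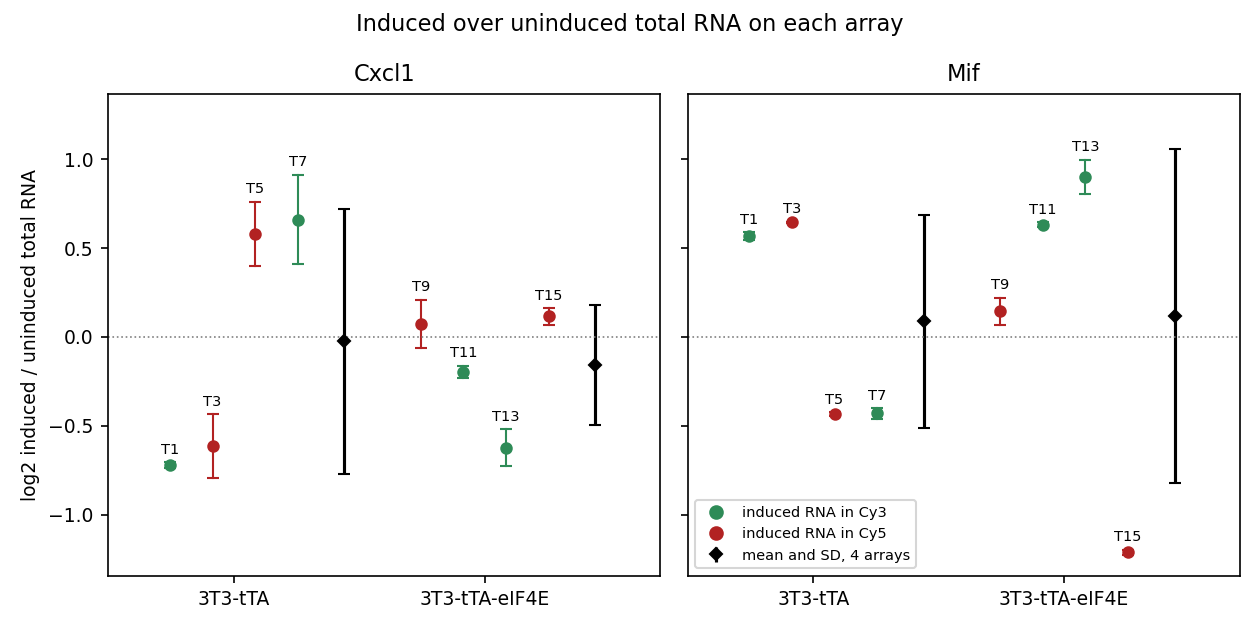
Log2 ratio of induced to uninduced total RNA of Cxcl1 (left) and Mif (right) on each array (dots, mean of the duplicate spots, which are the ends of the coloured lines; green, induced RNA in Cy3; red, in Cy5), with the mean and SD of 4 arrays in black. In 3T3-tTA the arrays T1 and T3 lie on the other side of 0 from T5 and T7 for both genes, and the means of all conditions lie within 0.16 of 0.

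Over all clones limma called 0 of 15247 (0%) in the total RNA difference at an adjusted p under 0.1 and a 1.3-fold change, and 0.446% had an unadjusted p under 0.05. Neither cytokine was among the latter, with unadjusted p-values by limma of 0.77 for Cxcl1 and 0.95 for Mif. Clones whose total RNA arrays did not overlap between the lines were 0.918% of all, and neither cytokine was among these either. The 3 Eif4e clones, with their large differences, had adjusted p-values by limma of 0.44 to 1.00.

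The order of the 4 conditions was the same for the highest pair of both genes. For Mif it ran from polysomal 3T3-tTA-eIF4E (1.95) through polysomal 3T3-tTA (1.23) to total RNA of 3T3-tTA-eIF4E (0.12) and of 3T3-tTA (0.09), each a mean log2 ratio. Each of these neighbours overlapped over their arrays. For Cxcl1 polysomal 3T3-tTA-eIF4E (1.83) stood apart from polysomal 3T3-tTA (0.02), total RNA of 3T3-tTA (-0.02) and total RNA of 3T3-tTA-eIF4E (-0.16), and these last 3 overlapped.

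Other genes of inflammation, secretion and cytokine signalling that the study listed are set beside the cytokines. All were listed by the study, and so their polysomal differences, or for Spp1 its total RNA difference, were chosen on these samples and are given as descriptions. In total RNA 0 of the 19 genes passed the test by limma, as did 0% of all clones, and 0 had an unadjusted p under 0.05, beside 0.446% of all clones. Their differences ranged from -0.13 to 0.60 on the log2 scale. The highest was that of Spp1, which encodes osteopontin, at 0.60 ± 0.26 (SE).

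Of the inflammatory response genes, the Fc receptor Fcgr1 differed in the polysomal ratio by 0.93 and the scavenger receptor Stab1 by 0.36, against 1.81 for Cxcl1. In total RNA they differed by 0.09 and 0.11, with a median of 0.10 for the pair beside -0.01 for all clones. Of 7 other secreted factors, 4 had a higher polysomal ratio in 3T3-tTA-eIF4E and 3 a lower. The growth factor Igf1 (0.72), Hdgf, hepatoma-derived growth factor (0.66), Gfer, a sulfhydryl oxidase (0.69), and the Wnt ligand Wnt6 (0.80) were higher, and the phosphate-regulating hormone Fgf23 (-0.45), the matrix protein Spon2 (-0.79) and Spp1 (-0.73) were lower. Their total RNA differences had a median of 0.07.

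Wnt6 had a higher ratio in 3T3-tTA-eIF4E while its message stayed under-represented on heavy polysomes in both lines, with means of -0.47 ± 0.54 in 3T3-tTA-eIF4E and -1.28 ± 1.08 in 3T3-tTA (SD, n = 4 arrays). Igf1 went from -0.29 ± 0.67 in 3T3-tTA to 0.43 ± 0.79 in 3T3-tTA-eIF4E. Hdgf had 0.41 ± 0.91 in 3T3-tTA and 1.08 ± 0.34 in 3T3-tTA-eIF4E (SD, n = 4 arrays).

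Of 10 genes in the NF-kappaB, cytokine receptor and chemokine receptor pathways, 5 had a higher polysomal ratio in 3T3-tTA-eIF4E and 5 a lower, with a median of -0.03 beside 0.01 for all clones. The kinases that release NF-kappaB lay on opposite sides, with 0.69 for Chuk and -0.88 for Ikbkb. The kinase Irak1, which acts below the interleukin-1 and Toll-like receptors, had -0.71. The receptor Tnfrsf9 had the highest value, 1.28. The transcription factors Jun and Egr1 had -1.11 and -0.99. The G protein subunits Gnai1, Gnai2 and Gng5 had 0.93, 0.41 and 0.52, and the catalytic subunit Pik3cd of phosphatidylinositol 3-kinase had -0.46. The polysomal arrays of the lines overlapped for all 10 genes, and nothing is read from this. Of all clones, only 0.728% had every 3T3-tTA-eIF4E array above every 3T3-tTA array. The share in the other direction was not counted. In total RNA the differences of these 10 genes lay between -0.13 and 0.19, with a median of -0.01.

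**Figure D5:**
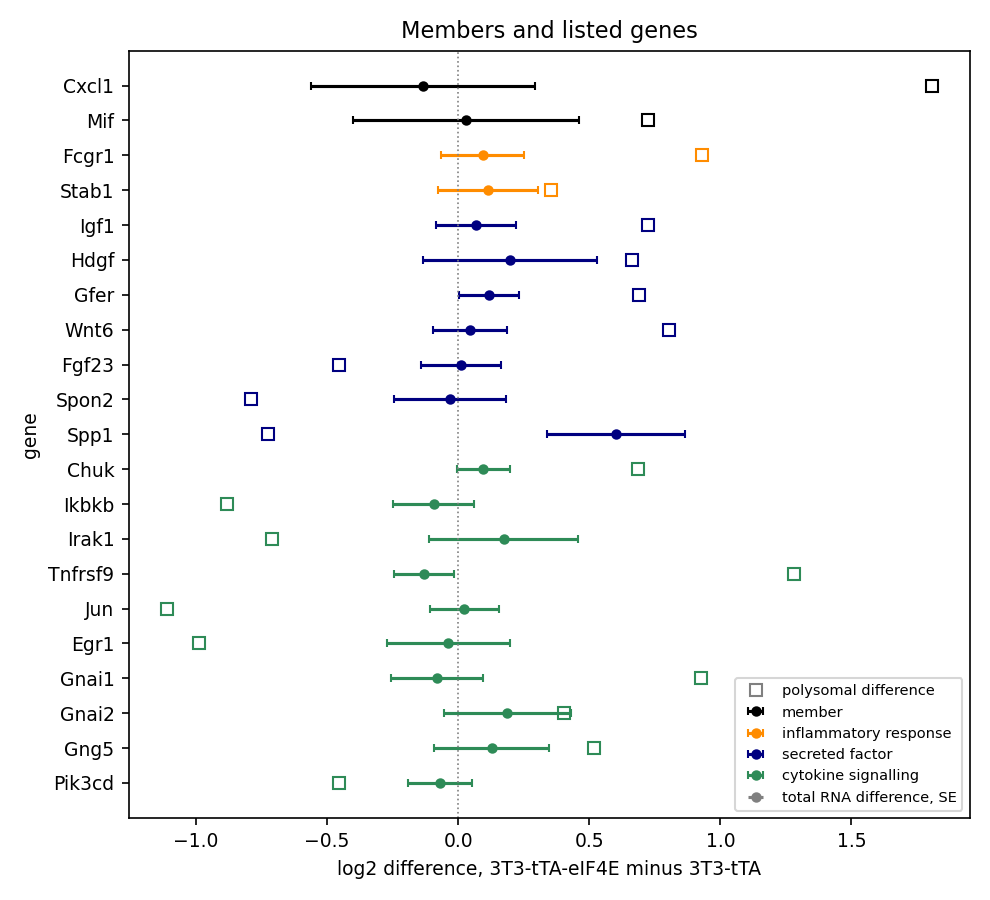
Log2 difference between 3T3-tTA-eIF4E and 3T3-tTA for Cxcl1, Mif and 19 listed genes (rows; colours mark the lists), in total RNA (dots with SE from limma) and in the ratio of heavy polysomal to total RNA (open squares, no error drawn). The total RNA dots lie between -0.13 and 0.60, and the square of Cxcl1, at 1.81, is the farthest to the right.

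The pattern over all 16 arrays, after a dye term had been removed from each clone, was used to find the listed clones most like each cytokine. The listed clone most like Cxcl1 was that of Carhsp1 (Pearson r = 0.89 over 16 arrays), followed by Mad2l1bp (0.87), Mtpn (0.86), 3110041P15Rik (0.84) and Osbpl1a (0.84). Those most like Mif were Rpl35 (r = 0.97 over 16 arrays), 4930517K11Rik (0.96), Ipo9 (0.94), Rpl13 (0.93) and Gng5 (0.93). Rpl35 and Rpl13 are proteins of the large ribosomal subunit. The polysomal differences of the 5 genes like Mif lay between 0.47 and 0.52, and those of the 5 like Cxcl1 between 0.45 and 0.63. Between Cxcl1 and Mif r was 0.54, and 1864 other clones were at least as like Mif as Cxcl1 was. These correlations describe arrays that share extractions, slides and dyes, and the listed clones were chosen on the same polysomal contrast.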

How the data were processed

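The authors hybridized the RNA to 16 two-colour cDNA arrays, scanned them, and applied the global lowess of limma to every array, with no subtraction of background. The deposited values are log2 ratios of Cy3 over Cy5, and the 32 samples are the 2 spots of a clone on each array. Scanner intensity, which the authors had left unnormalized, was deposited for 4 polysomal arrays and used here. Each clone was matched to its spots on these arrays by the closeness of its deposited ratios to scanner ratios of Cy3 over Cy5. Ratios recomputed at the matched spots correlated with the deposited log2 values at 0.996 to 1.00. The match took this direction as given and built in much of the correlation, which is therefore no separate check of direction. The same direction was assumed for the other 12 arrays. Each ratio was turned by its labelled dyes and the spots were averaged. Conditions, dyes and array pairs came from the sample labels and series description.

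The clone names deposited beside the values are wrong, since 0 of the matched clones had its own name. A clone that the study listed for its polysomal difference was assigned the row whose polysomal difference equals its tabulated numerator to 6 significant digits. Clones listed for total RNA, among them those of Spp1, Col1a2, Dcn and Bgn, were assigned in the same way by the total RNA difference. A row with an equal value was found once for 572 of 584 entries. Of 570 distinct clones 546, Mif and Cxcl1 included, lay at the spot position that their plate name predicts. Symbols are the study's. Other clones of these genes, and clones of Cxcr2, Cd74 or Cd44, were not analysed here.

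For total RNA, the dye effect of each clone was taken out by least squares, and the means of the 2 extractions per condition were compared with limma 3.58.1 (R 4.3.3). The arrays of an extraction are not named in the sources used here, so 4 assignments were fitted and the largest p kept, with Benjamini-Hochberg adjustment over 15247 clones. Calls needed an adjusted p under 0.1 and 1.3-fold. P-values measure only the spread between extractions as assigned, and the assignment kept can differ from clone to clone. The number of arrays limits the precision. Summaries used Python 3.11.15.

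The cytokines, lists and named genes were chosen with earlier results of these data known. Named were both cytokines, the listed genes with 1 row, the 5 listed clones most like each cytokine, and the Eif4e clones. Alternatives covered the replicate unit, centring, scaling, single spots, single dyes, each array left out, dim clones, assignments, thresholds, pairing by dye, the polysomal reference, background correction and linear means.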

Additional observations from a re-analysis of the deposited data

Results flagged for a closer look

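The ratio of heavy polysomal to total RNA of Cxcl1 on P15 of 3T3-tTA, -1.29 on the log2 scale, lay far from the other 3 arrays of its condition. Its gap to the nearest of them was 0.896 of the whole range, above Dixon's 95% critical value. Of the 8 sets of 4 arrays checked, 4 for each gene, this was the only one past that value, and chance flags about 5% of sets. Both spots were low, at -1.09 and -1.49. Recomputed by loess from the scanner intensities without background correction, the value was -1.61. On the same array Mif had 0.55, the lowest of its 4 parental values.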

How the results depend on the processing

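The polysomal differences, which chose the genes, ranged from 0.96 to 2.76 for Cxcl1 and from 0.41 to 1.03 for Mif. For Cxcl1 the 4 arrays with scanner values gave 2.54 as deposited, 2.69 recomputed without background correction and 2.76 with normexp, and these hold P15. Leaving out each array in turn gave 1.37 to 2.16 for Cxcl1 and 0.50 to 0.94 for Mif. In alternatives chosen after the data were seen, Cxcl1 had 1.60 without both P15 and P1, and 0.96 with Cy5 arrays only and P15 left out.

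The total RNA differences had no stable sign. With Cy5 arrays only, Cxcl1 had 0.11 and Mif -0.64, and with Cy3 arrays only -0.38 and 0.70. Leaving out each total RNA array gave -0.24 to 0.041 for Cxcl1 and -0.21 to 0.56 for Mif. Without T13 and T15, also chosen after the data were seen, they were -0.04 and 0.30. Neither cytokine was called under the alternatives with a test, with adjusted p-values by limma of 0.896 to 1.00.

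The count of called clones, 0 as reported, was 3 with arrays as replicates, 4 with duplicate spots as independent, 2 with the second spot only, 4 with Cy5 arrays only and 6 with the smallest p over the assignments, of which 1 to 3 were Eif4e clones. Leaving out each array gave 0 to 4, the 4 without T13. The cause was not tested.

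The numbers in the sample titles do not pair arrays across the lines. With arrays of the same dye paired as a block, chosen after the data were seen and with the largest p over the 4 possible pairings, the differences were -0.13 for Cxcl1 and 0.03 for Mif, both with an adjusted p of 1.00 by limma, and 0 clones were called (92 at an unadjusted p under 0.05). Signal over background limits Cxcl1 in the total RNA channel of P3 and P7, the polysomal arrays of 3T3-tTA-eIF4E with scanner values.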
